A study of Drosophila melanogaster with 18 samples.

Results

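Fas3 (Fasciclin 3) and 7 further genes for cell adhesion proteins, Fas2, Fas1, Con, Nrg, Nrt, shg and CadN, were taken by their symbols from the release 6 gene annotation. All 8 were found among the 16327 annotated genes that hold at least 1 GATC site, and their spans hold 939 of the 400733 GATC sites in the count table. The measure was targeted DamID, in which the methylase Dam is fused to an RNA polymerase II (PolII) subunit and expressed from a GAL4 driver, so that GATC sites near PolII become methylated and are read out by sequencing. Occupancy is given as CPM, the count at a site in every 1000000 counts of the library, and over a gene as CPM per GATC site.

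Adhesion proteins hold the cells of an epithelium or a muscle primordium together, and they mark which cells join into a common tissue. Fas3, Fas2 and Nrg (Neuroglian) are immunoglobulin-domain proteins, Con (Connectin) is a leucine-rich repeat protein, Nrt (Neurotactin) has an extracellular domain related to cholinesterases, Fas1 is anchored to the membrane by a lipid and carries fasciclin domains, and shg and CadN encode E-cadherin and N-cadherin. Fas3 protein is widely used as a marker of the Drosophila visceral mesoderm (VM), the tissue in which the ligand Jelly belly (Jeb) acts through its receptor, the tyrosine kinase Alk, in the specification of muscle founder cells.

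The 18 libraries were made from pooled embryos at stages 10 to 13 and form 6 groups of 3 replicates. Every group carried the Dam-PolII transgene, driven either by twi2xPE-GAL4 (twi, active in the mesoderm at large) or by bap-GAL4 (bap, active in the VM). With each driver, 1 group also carried UAS-Jeb, which overexpresses the ligand, 1 group carried UAS-Alk.DN, the extracellular domain of Alk acting as a dominant negative, and 1 group, labelled Dam-PolII, carried the fusion alone. Because each sample was a pool of embryos and the driver restricts where the fusion is made, fewer driver-active cells and less PolII contact per cell cannot be told apart.

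Depth ranged from 1624349 to 14095376 counts per library, so that 3 counts at a site, taken as the floor of detection, corresponded to 0.213 to 1.85 CPM. The labels were checked at jeb itself, whose 23 exonic GATC sites should carry more counts only where the transgene is present. They held 6.98, 361 and 628 CPM in twi Jeb replicates 1 to 3 and 8.92, 260 and 257 CPM in bap Jeb replicates 1 to 3. The Alk.DN libraries ranged over 19.1 to 23.7 CPM with twi and over 12.05 to 28.2 CPM with bap. The libraries labelled twi Dam-PolII held 11.1 to 24.1 CPM, but those labelled bap Dam-PolII held 389, 374 and 474 CPM. Replicate 1 of both Jeb groups therefore lacked the signal its label implies, and the bap Dam-PolII libraries carried a signal that theirs does not. A second check, on the 54 GATC sites of Polr2A, the gene for the largest PolII subunit, also separated the groups. Polr2A held 307 to 391 CPM in twi Jeb and 79.1 to 83.2 CPM in twi Alk.DN, against 330 to 341 CPM in twi Dam-PolII, and 581 to 921 CPM in bap Jeb and 101 to 116 CPM in bap Alk.DN, against 2111 to 2157 CPM in bap Dam-PolII. The 6 Alk.DN libraries were thus the lowest of all 18 at this gene, although the study describes the fusion in every group. Sample titles of the Alk.DN and Jeb libraries alike name that transgene and the driver but not the fusion. The title of bap Alk.DN replicate 3 names none of these. The part of the Polr2A difference in the Alk.DN comparisons was not tested. Every direction below that rests on these libraries holds for the groups as labelled. The summed level of 5 VM marker genes was 3.99 to 8.45 CPM per site in twi Jeb and 2.85 to 3.03 in twi Alk.DN, against 5.30 to 6.18 in twi Dam-PolII. With bap it was 6.79 to 19.6 in Jeb and 5.30 to 8.74 in Alk.DN, against 12.5 to 14.8 in libraries labelled Dam-PolII. No marker was at 0. The VM list includes Alk, part of which is in the Alk.DN transgene, and bap, whose regulatory sequence drives GAL4.

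Differences were tested with the quasi-likelihood F-test of edgeR on counts summed over each gene, adjusted over all genes tested, with a call at an adjusted p under 0.01. These fits scale libraries by TMM factors, which were 1.21 to 1.24 in twi Alk.DN, against 0.808 to 0.835 in twi Dam-PolII, with a range of 1.18 to 1.21 in bap Alk.DN, against 0.828 to 0.845 in bap Dam-PolII. The printed CPM values are relative to library totals instead. On library totals the median log2 fold change of all genes, Alk.DN over Dam-PolII, was 0.72 with twi and 0.66 with bap, against 0.15 and 0.14 after TMM scaling. A gene can thus have a higher CPM in Alk.DN and a negative fold change after TMM scaling, which is then a change relative to most other genes.

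Fas3 spans chr2L:18320102-18393441 on the plus strand (FBgn0000636) and holds 97 GATC sites, 10 of which also lie in other genes. Its occupancy was 4.64, 11.3 and 10.1 CPM per site in twi Jeb and 3.97, 3.85 and 3.57 in twi Alk.DN, against 3.21, 3.48 and 3.36 in twi Dam-PolII. With bap it was 6.32, 19.5 and 17.7 CPM per site in Jeb and 7.06, 7.95 and 7.79 in Alk.DN, against 15.4, 15.3 and 15.8 in the libraries labelled Dam-PolII. The 3 bap Dam-PolII libraries and bap Jeb replicates 2 and 3 were the highest of all 18, and the twi libraries of Alk.DN and Dam-PolII were the lowest. In the order of group means, bap Dam-PolII (15.5), bap Jeb (14.5), twi Jeb (8.67) and bap Alk.DN (7.60) overlapped each with the next, while twi Alk.DN (3.80) and twi Dam-PolII (3.35) each stood apart from their neighbours. Without replicate 1 of both Jeb groups, bap Jeb (18.6) came first, twi Jeb (10.7) lay between bap Dam-PolII and bap Alk.DN, and all 6 groups stood apart.

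**Figure D1:**
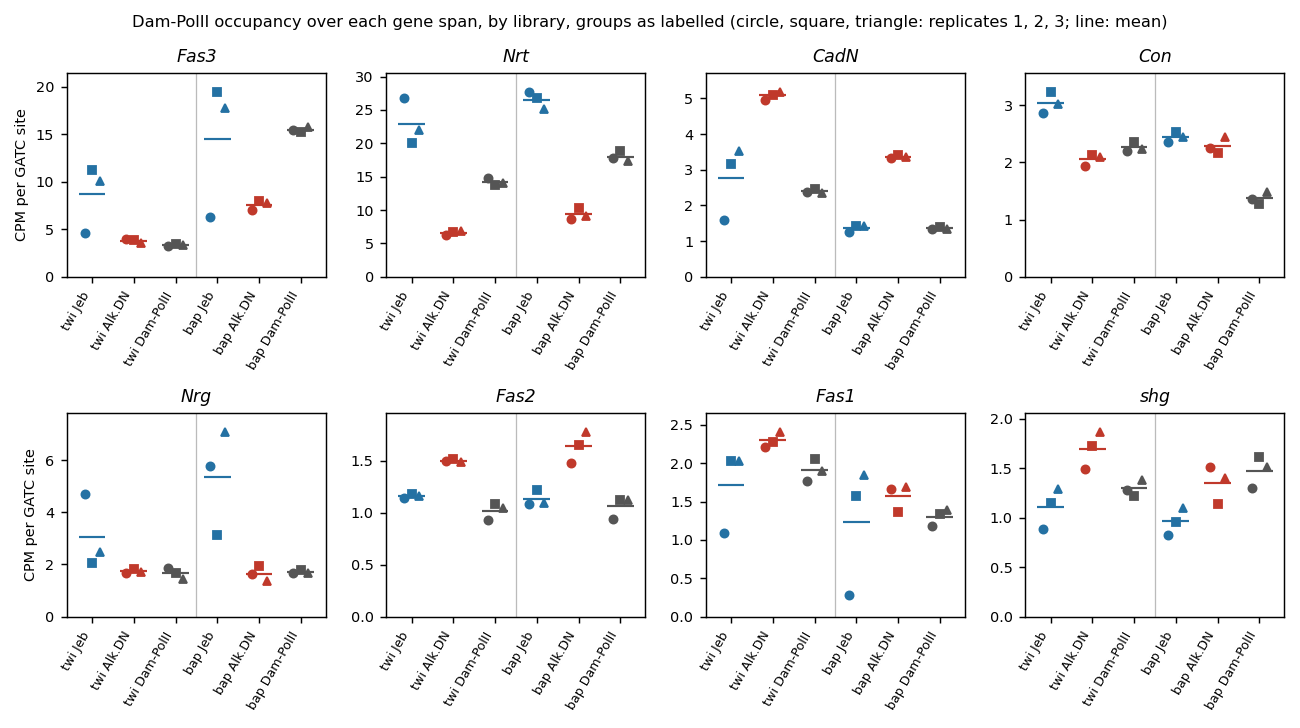
Occupancy over each gene span in CPM per GATC site (vertical axes, from 0), by group and library. Points are single libraries, with circle, square and triangle for replicates 1, 2 and 3, and lines are group means; Fas3 lies between 7.06 and 7.95 in bap Alk.DN, and the 3 libraries with the label bap Dam-PolII lie between 15.3 and 15.8.

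The strongest Fas3 signal lay at a pair of neighbouring GATC sites in an intron, 13.3 and 13.7 kb from the only annotated start. These sites are shown with the flanking reference bases because they carry the largest Fas3 differences between groups. Both are printed on the plus strand from the RefSeq release 6 plus ISO1 assembly, with the GATC in capitals.
Fas3 site at 13.3 kb, chr2L:18333394-18333457: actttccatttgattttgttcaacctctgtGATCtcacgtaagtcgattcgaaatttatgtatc
Fas3 site at 13.7 kb, chr2L:18333797-18333860: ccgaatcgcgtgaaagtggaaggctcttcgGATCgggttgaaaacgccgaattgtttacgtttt

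The site at 13.7 kb held 39.9, 220 and 195 CPM in twi Jeb and 1.73, 0.945 and 1.49 CPM in twi Alk.DN, against 1.65, 2.44 and 1.10 CPM in twi Dam-PolII. With bap it held 90.6, 417 and 363 CPM in Jeb and 16.6, 17.1 and 23.5 CPM in Alk.DN, against 297, 279 and 290 CPM in the libraries labelled Dam-PolII. The site at 13.3 kb held 4.21, 168 and 183 CPM in twi Jeb and 6.62, 7.14 and 5.53 CPM in twi Alk.DN, against 6.11, 5.07 and 5.49 CPM in twi Dam-PolII. Its bap values were 9.20, 350 and 368 CPM in Jeb and 28.0, 28.3 and 38.8 CPM in Alk.DN, against 253, 219 and 248 CPM in the Dam-PolII libraries. Both sites together were at 377 CPM or more in 7 libraries, the 3 labelled bap Dam-PolII and replicates 2 and 3 of each Jeb group, and at 99.8 CPM or less in the other 11. The same 7 libraries were the ones with 257 CPM or more at the jeb exons, and the part of that signal in the Fas3 result was not tested. The pair made up 5.88 to 8.25% of the Fas3 counts in bap Alk.DN, against 33.6 to 36.8% in bap Dam-PolII, while in the twi libraries it made up 2.03 to 2.17% in Alk.DN, against 2.02 to 2.50% in Dam-PolII.

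**Figure D2:**
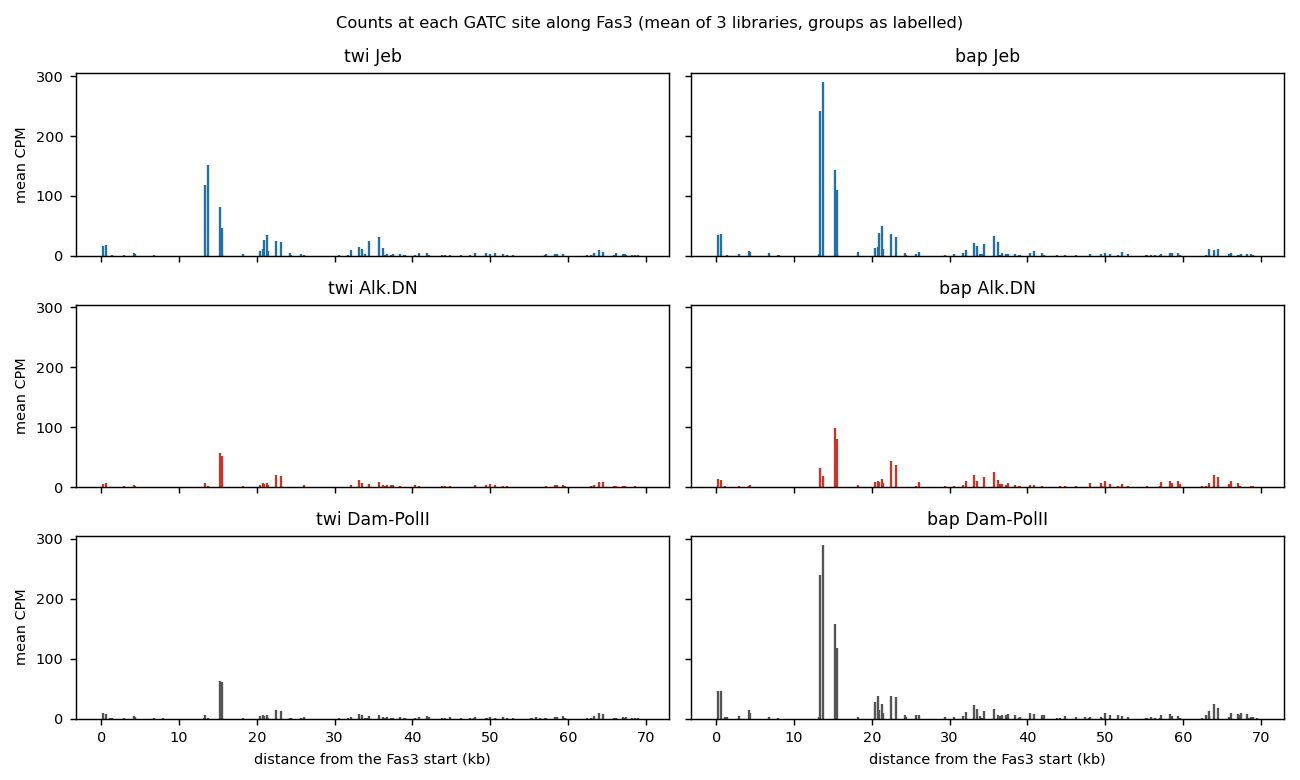
Mean CPM of 3 libraries at each GATC site (vertical axes) against the distance in kb from the Fas3 start, with twi on the left and bap on the right, and Jeb, Alk.DN and Dam-PolII from top to bottom. The tall lines are the sites at 13.3 and 13.7 kb; the second has a mean of 1.39 CPM in twi Alk.DN, against 1.73 CPM in twi Dam-PolII, and of 19.1 CPM in bap Alk.DN, against 289 CPM in bap Dam-PolII.

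In the comparison of Alk.DN with Dam-PolII, which asks which genes change when Alk signalling is blocked, Fas3 fell with both drivers relative to most genes. Its log2 fold change was -0.40 (SE 0.077, adjusted p = 0.00155, edgeR) with twi and -1.55 (SE 0.083, adjusted p = 4.12e-10, edgeR) with bap. On library totals the bap change was -1.03 and still called, whereas the twi change turned to 0.18 and was not called (adjusted p = 0.0574, edgeR). The twi call was also lost without twi Alk.DN replicate 2 (adjusted p = 0.0135, edgeR) or replicate 3 (adjusted p = 0.0195, edgeR). Without the pair of strong sites, an alternative chosen after seeing the data, the bap change was -1.03 (SE 0.088, adjusted p = 9.62e-08, edgeR) and the twi change -0.40. Over the other 95 sites the 3 libraries of bap Alk.DN held 6.74 to 7.64 CPM per site and those labelled bap Dam-PolII 9.96 to 10.4, with no overlap.

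At single sites, 1 of 61 tested Fas3 sites was called lower with twi, where 11.1% of all tested sites were called in either direction, and 14 of 75 with bap, where 20.4% were. None was called higher. The site at 13.7 kb had a log2 fold change of -0.83 (SE 0.60, adjusted p = 0.359, edgeR) with twi, where no library of either group exceeded 2.44 CPM, and of -4.31 (SE 0.19, adjusted p = 5.46e-08, edgeR) with bap. The site at 13.3 kb had -0.31 (adjusted p = 0.486, edgeR) with twi and -3.31 (SE 0.19, adjusted p = 2.88e-07, edgeR) with bap. The twi call was another intronic site, 41.9 kb from the start, at 1.53, 0.630 and 1.49 CPM in twi Alk.DN, against 4.46, 4.97 and 3.66 CPM in twi Dam-PolII (log2 fold change -2.33, SE 0.49, adjusted p = 0.00817, edgeR).

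The response of Fas3 differed between the drivers. The interaction, which is the twi Alk.DN change minus the bap Alk.DN change, was estimated in a fit of 4 groups with scaling factors of its own. It is therefore not exactly the difference of the changes given above. Its value was 1.20 on the log2 scale (SE 0.11, adjusted p = 8.19e-08, edgeR), and it was 0.68 (SE 0.11, adjusted p = 0.000166, edgeR) without the pair of strong sites. In Dam-PolII alone, Fas3 was lower with twi than in the libraries labelled bap by a log2 fold change of -2.45 (SE 0.077, adjusted p = 1.29e-13, edgeR), and without the pair by -1.86. In Alk.DN it was lower with twi than with bap by -1.16 (SE 0.080, adjusted p = 4.82e-06, edgeR), and without the pair by -1.09. The bap Dam-PolII libraries, whose jeb counts go against their label, enter the interaction and the Dam-PolII comparison but not the Alk.DN one.

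The promoter of Fas3 was read from the single GATC site within 500 bp of its start, 249 bp into the first exon. The 300 bases upstream are shown because occupancy there was compared with that over the gene body. Capitals mark TATAAA, read on both strands, whose matches overlap as TTTATAAA just before the start; GAGAG, the core of many GAGA factor sites, and GATC were searched as well and have no match in this window.
Fas3 promoter, plus strand, chr2L:18319802-18320101: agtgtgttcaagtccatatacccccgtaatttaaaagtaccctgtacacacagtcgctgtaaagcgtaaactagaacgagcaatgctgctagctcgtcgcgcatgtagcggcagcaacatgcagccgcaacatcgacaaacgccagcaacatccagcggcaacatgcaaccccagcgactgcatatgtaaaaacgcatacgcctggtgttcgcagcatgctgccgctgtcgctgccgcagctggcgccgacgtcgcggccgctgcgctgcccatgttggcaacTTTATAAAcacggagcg

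In the 300 bases before the start of 13968 protein-coding genes, TATAAA was found on either strand in 48.0% and GAGAG in 28.9%. The Fas3 promoter site held 2.26, 21.7 and 24.6 CPM in twi Jeb and 4.03, 6.93 and 6.03 CPM in twi Alk.DN, against 8.75, 8.22 and 11.6 CPM in twi Dam-PolII. Under bap it held 4.04, 51.1 and 49.9 CPM in Jeb and 15.1, 9.82 and 17.8 CPM in Alk.DN, against 43.0, 48.6 and 47.9 CPM in the libraries labelled Dam-PolII. The Alk.DN libraries lay below all Dam-PolII libraries with each driver. The promoter change was -0.94 (adjusted p = 0.0427, edgeR) with twi and -1.75 (SE 0.27, adjusted p = 0.000155, edgeR) with bap. The body, its other 96 sites in a fit with scaling factors of its own, fell relative to most genes. Its fall was 0.51 with twi and 1.74 with bap on the log2 scale, both called. In CPM per site the twi body was higher in Alk.DN (3.97, 3.81 and 3.55) than in Dam-PolII (3.15, 3.44 and 3.28), and its change turned sign on library totals. The log2 ratio of promoter to body changed by -0.83 (adjusted p = 0.0329, limma) with twi and -0.75 (adjusted p = 0.0631, limma) with bap, so that neither passed the threshold.

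Nrt spans chr3L:16766072-16777465 on the plus strand (FBgn0004108) with 39 GATC sites and was the member that fell in Alk.DN with both drivers with TMM factors, DESeq2 size factors and library totals alike. It held 26.7, 20.04 and 22.0 CPM per site in twi Jeb and 6.20, 6.76 and 6.79 in twi Alk.DN, against 14.8, 13.8 and 14.1 in twi Dam-PolII. For bap the values were 27.7, 26.8 and 25.1 CPM per site in Jeb and 8.67, 10.3 and 9.17 in Alk.DN, against 17.8, 18.8 and 17.3 in the libraries labelled Dam-PolII. The groups followed the order Jeb, Dam-PolII, Alk.DN with each driver and did not overlap. Unlike over the Fas3 span, replicate 1 of the Jeb groups was not low over the Nrt span.

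Nrt fell in Alk.DN by 1.69 with twi (log2, SE 0.073, adjusted p = 6.20e-09, edgeR) and by 1.46 with bap (SE 0.10, adjusted p = 7.86e-09, edgeR). On library totals the changes were -1.11 and -0.94, both called. At single sites, 12 of 27 tested sites were called lower with twi and 9 of 26 with bap, where 11.1% and 20.4% of all tested sites were called. The 5 strongest sites held 80.9% of the Nrt counts over all libraries. The strongest lies in an intron 2.06 kb from the 5' start and is printed on the plus strand with its GATC in capitals, since it had the smallest adjusted p of Nrt with both drivers.
Nrt site at 2.06 kb, chr3L:16768104-16768167: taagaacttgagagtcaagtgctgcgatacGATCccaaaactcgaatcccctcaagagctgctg

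This site held 144, 258 and 310 CPM in twi Jeb and 65.9, 70.0 and 74.2 CPM in twi Alk.DN, against 170, 141 and 165 CPM in twi Dam-PolII (Alk.DN over Dam-PolII -1.70, SE 0.12, adjusted p = 9.22e-06, edgeR). In the bap groups it held 196, 428 and 352 CPM in Jeb and 141, 141 and 141 CPM in Alk.DN, against 256, 277 and 256 CPM in the libraries labelled Dam-PolII (-1.29, SE 0.14, adjusted p = 2.92e-05, edgeR). Of the 11 Nrt sites in promoter windows, 10 surround an internal start 7.4 kb downstream, and the 11 averaged 0.957 CPM per site in twi Alk.DN, against 1.71 in twi Dam-PolII, and 1.10 in both bap Alk.DN and bap Dam-PolII. The body averaged 8.69 CPM per site in twi Alk.DN, against 18.7 in twi Dam-PolII, and 12.4 in bap Alk.DN, against 23.9 in bap Dam-PolII. Occupancy of Nrt thus lay outside the promoter windows, with a log2 ratio between -4.10 and -2.10 in all 18 libraries.

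CadN spans chr2L:17647053-17778340 on the minus strand (FBgn0015609) with 230 GATC sites and was the member that rose in Alk.DN with both drivers. It held 1.60, 3.15 and 3.53 CPM per site in twi Jeb and 4.97, 5.09 and 5.19 in twi Alk.DN, against 2.38, 2.45 and 2.35 in twi Dam-PolII. With bap it held 1.26, 1.42 and 1.42 CPM per site in Jeb and 3.33, 3.42 and 3.34 in Alk.DN, against 1.34, 1.39 and 1.34 in the libraries labelled Dam-PolII. The 3 Alk.DN libraries were above all other libraries of the same driver. The log2 fold change was 0.51 (SE 0.061, adjusted p = 3.95e-05, edgeR) with twi and 0.79 (SE 0.096, adjusted p = 4.83e-06, edgeR) with bap, and on library totals 1.09 and 1.31, both called. Library totals shift fold changes upward, with all-gene medians of 0.72 and 0.66, so they are no check on a rise.

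Of the tested CadN sites, 99 of 108 had a positive fold change with twi, where 58.3% of all tested sites did, and 55 of 57 with bap, where 50.7% did. The count filter admits a site that passes in the libraries of either group, so weak sites could enter through the group where they are high. These signs are therefore no separate support for the rise of the span. Only 5 and 10 of the tested CadN sites were called, all higher, which is a smaller share than the 11.1% and 20.4% of all tested sites called. The strongest site, in an intron, held 184, 186 and 190 CPM in twi Alk.DN, against 74.1, 84.7 and 83.5 CPM in twi Dam-PolII (0.68, SE 0.11, adjusted p = 0.00167, edgeR), and 152, 139 and 153 CPM in bap Alk.DN, against 95.3, 110 and 107 CPM in bap Dam-PolII (0.12, adjusted p = 0.586, edgeR). A weaker intronic site, 50.0 kb from the nearest start, was called with both drivers and had the smallest adjusted p with twi. It is printed on the minus strand, that of the gene, with its GATC in capitals.
CadN site at 50.0 kb, chr2L:17702272-17702335: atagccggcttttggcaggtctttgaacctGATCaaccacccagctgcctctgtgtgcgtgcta

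It held 24.1, 25.8 and 25.7 CPM in twi Alk.DN, against 7.27, 5.89 and 7.19 CPM in twi Dam-PolII (1.38, SE 0.20, adjusted p = 0.000853, edgeR). Under bap it held 16.4, 21.1 and 16.4 CPM in Alk.DN, against 2.33, 1.93 and 1.28 CPM in Dam-PolII (2.90, SE 0.41, adjusted p = 0.000215, edgeR). The smallest adjusted p with bap was at a further intronic site 19.3 kb from a start, at 21.0, 17.1 and 25.0 CPM in bap Alk.DN, against 2.48, 2.50 and 1.78 CPM in bap Dam-PolII (2.84, SE 0.37, adjusted p = 0.000136, edgeR). Nervous system marker genes, 5 in number, summed to 2.84 to 2.90 CPM per site in twi Alk.DN, against 3.34 to 3.57 in twi Dam-PolII, and to 2.62 to 2.69 in bap Alk.DN, against 1.59 to 1.78 in bap Dam-PolII. The 5 did not move as 1: with twi elav and pros were called lower and none higher, and with bap Syt1 and pros were called higher and elav lower, while on library totals 3 were higher and 1 lower with twi and 2 higher with bap. Their part in the CadN result was not tested.

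Both promoter sites of CadN lie upstream of its 5' start. The 300 bases before that start are printed on the minus strand, because these sites rose with bap; capitals mark the 2 GATC sites, and neither TATAAA nor GAGAG has a match.
CadN promoter, minus strand, chr2L:17778341-17778640: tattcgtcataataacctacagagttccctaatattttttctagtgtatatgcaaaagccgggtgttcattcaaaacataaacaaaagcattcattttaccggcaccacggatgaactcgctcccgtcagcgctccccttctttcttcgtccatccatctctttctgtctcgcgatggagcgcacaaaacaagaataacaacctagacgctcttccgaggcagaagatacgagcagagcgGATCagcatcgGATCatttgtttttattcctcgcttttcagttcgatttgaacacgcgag

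These sites averaged 21.3, 15.2 and 20.4 CPM per site in twi Alk.DN, against 10.2, 10.6 and 18.6 in twi Dam-PolII, with overlap between the groups (0.35, adjusted p = 0.279, edgeR). With bap they averaged 31.8, 22.7 and 18.4 CPM per site in Alk.DN, against 6.85, 4.43 and 6.51 in the libraries labelled Dam-PolII, with no overlap (1.99, SE 0.29, adjusted p = 0.000103, edgeR). The log2 promoter to body ratio changed by -0.30 with twi and by 0.96 with bap (adjusted p = 0.0261 for bap, limma), and neither was called.

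Con spans chr3L:4936758-5079033 on the minus strand (FBgn0005775), the longest of the 8 genes, with 223 GATC sites, 29 of which also lie in other genes. It held 2.87, 3.24 and 3.02 CPM per site in twi Jeb and 1.94, 2.12 and 2.10 in twi Alk.DN, against 2.21, 2.36 and 2.23 in twi Dam-PolII. For bap the values were 2.36, 2.54 and 2.44 CPM per site in Jeb and 2.25, 2.16 and 2.44 in Alk.DN, against 1.37, 1.27 and 1.49 in the libraries labelled Dam-PolII. The Alk.DN libraries thus lay below Dam-PolII with twi and above it with bap. The log2 fold change was -0.72 (SE 0.070, adjusted p = 6.32e-06, edgeR) with twi, and 0.21 (adjusted p = 0.125, edgeR) with bap. On library totals the twi change was -0.14 and not called and the bap change 0.73 and called. The interaction, twi minus bap, was -0.88 (SE 0.13, adjusted p = 2.75e-05, edgeR) and was -0.87 on library totals.

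Within Con, 1 tested site of 88 was called higher and 8 lower with twi, and 7 of 50 were called higher and 2 lower with bap, so that the called shares were near the 11.1% and 20.4% of all tested sites. Occupancy at the downstream one of its 2 annotated starts fell with both drivers, and the 300 bases before that start are therefore shown. Capitals mark GAGAG, read on both strands, with 5 matches of which a pair overlaps as GAGAGAG, while TATAAA has no match.
Con promoter at the downstream start, minus strand, chr3L:4976177-4976476: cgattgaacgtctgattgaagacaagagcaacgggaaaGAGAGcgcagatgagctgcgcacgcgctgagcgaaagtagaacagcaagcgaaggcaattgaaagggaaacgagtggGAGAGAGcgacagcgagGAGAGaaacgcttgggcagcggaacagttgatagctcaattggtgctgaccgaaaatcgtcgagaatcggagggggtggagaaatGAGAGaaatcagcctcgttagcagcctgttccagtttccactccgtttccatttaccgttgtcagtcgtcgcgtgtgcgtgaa

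The GATC site 266 bp inside that start, in an exon, held 13.9, 36.5 and 34.5 CPM in twi Jeb and 5.47, 5.36 and 6.74 CPM in twi Alk.DN, against 23.8, 30.1 and 29.4 CPM in twi Dam-PolII (Alk.DN over Dam-PolII -2.76, SE 0.20, adjusted p = 8.91e-06, edgeR). In the bap groups it held 6.83, 48.7 and 49.9 CPM in Jeb and 8.12, 8.89 and 3.44 CPM in Alk.DN, against 20.5, 14.4 and 19.2 CPM in the libraries labelled Dam-PolII (-1.80, SE 0.38, adjusted p = 0.00347, edgeR). Alk.DN was below Dam-PolII in every library with both drivers, also with bap, where the whole gene was not. About 12.9 kb upstream of the same start, an intronic site held 8.69, 7.02 and 4.40 CPM in bap Alk.DN, against 0.291, 0.114 and 0.394 CPM in bap Dam-PolII (4.17, SE 0.73, adjusted p = 0.00101, edgeR). It is printed on the minus strand, that of the gene, as the Con site with the smallest adjusted p with bap; its twi change was 1.24 (adjusted p = 0.158, edgeR), and the bap Dam-PolII values there rest on 1 to 4 counts per library.
Con site 12.9 kb upstream of the downstream start, chr3L:4989073-4989136: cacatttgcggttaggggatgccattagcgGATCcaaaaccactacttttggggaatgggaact

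Over both promoter sites Con averaged 3.79, 4.10 and 4.79 CPM per site in twi Alk.DN, against 12.5, 15.2 and 14.7 in twi Dam-PolII (-1.93, SE 0.21, adjusted p = 3.29e-05, edgeR), and 6.14, 5.73 and 2.68 in bap Alk.DN, against 10.4, 7.27 and 9.66 in bap Dam-PolII (-0.96, adjusted p = 0.0516, edgeR). The log2 promoter to body ratio was 0.71, 0.72 and 0.91 in twi Alk.DN, against 2.11, 2.32 and 2.33 in twi Dam-PolII, a change of -1.48 (SE 0.16, adjusted p = 0.00074, limma). With bap it was 1.15, 1.11 and 0.10 in Alk.DN, against 2.32, 1.90 and 2.14 in Dam-PolII, a change of -1.34 (adjusted p = 0.0126, limma) that missed the threshold although the groups did not overlap. The median ratio change of all genes was -0.21 with twi and -0.30 with bap.

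**Figure D3:**
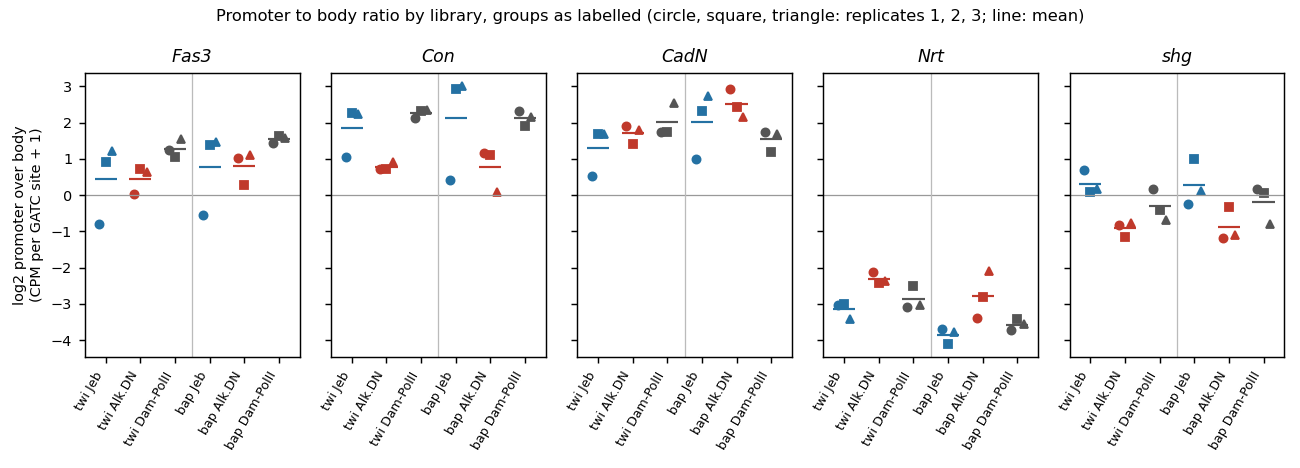
Log2 ratio of promoter to body occupancy (each in CPM per GATC site, plus 1) by group and library for Fas3, Con, CadN, Nrt and shg, with symbols for replicates and lines for means. Con lies between 0.71 and 0.91 in twi Alk.DN and between 2.11 and 2.33 in twi Dam-PolII, and Nrt is below 0 in every library.

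Of the remaining members, Nrg (chrX:8517373-8555170, FBgn0264975, 118 GATC sites, 31 also in other genes) encodes the L1-type protein Neuroglian. It held 4.69, 2.05 and 2.47 CPM per site in twi Jeb and 1.68, 1.83 and 1.73 in twi Alk.DN, against 1.85, 1.67 and 1.46 in twi Dam-PolII, and 5.79, 3.14 and 7.08 in bap Jeb and 1.62, 1.93 and 1.36 in bap Alk.DN, against 1.69, 1.78 and 1.69 in bap Dam-PolII. The Jeb libraries were the highest with each driver, and those of Alk.DN and Dam-PolII overlapped. Relative to most genes Nrg fell in Alk.DN, by 0.51 with twi (SE 0.10, adjusted p = 0.00229, edgeR) and by 0.59 with bap (SE 0.14, adjusted p = 0.00229, edgeR), but on library totals the changes were 0.072 and -0.07 and neither was called. The twi call was lost without any 1 of the 3 twi Alk.DN replicates (adjusted p = 0.0113 to 0.0158, edgeR). At its strongest site, an exonic one, Nrg held 21.3, 18.05 and 25.2 CPM in twi Jeb and 3.84, 2.52 and 3.26 CPM in twi Alk.DN, against 9.25, 11.9 and 11.5 CPM in twi Dam-PolII (Alk.DN over Dam-PolII -2.28, SE 0.29, adjusted p = 0.000366, edgeR). With bap that site held 206, 99.8 and 273 CPM in Jeb and 19.6, 24.1 and 21.4 CPM in Alk.DN, against 16.5, 12.3 and 16.4 CPM in Dam-PolII (0.14, not called). With each driver 3 Nrg sites were called, all lower, of 33 tested with twi and 19 with bap. These are smaller shares than the 11.1% and 20.4% of all tested sites called.

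E-cadherin, encoded by shg (chr2R:21049654-21057197, FBgn0003391, 50 sites), held 0.885, 1.14 and 1.29 CPM per site in twi Jeb and 1.49, 1.73 and 1.87 in twi Alk.DN, against 1.28, 1.22 and 1.38 in twi Dam-PolII. Its values were 0.828, 0.960 and 1.10 in bap Jeb and 1.51, 1.14 and 1.40 in bap Alk.DN, against 1.30, 1.62 and 1.51 in bap Dam-PolII. The Alk.DN change was -0.19 (adjusted p = 0.262, edgeR) with twi and -0.65 (SE 0.19, adjusted p = 0.00946, edgeR) with bap. The bap call was lost without replicate 2 or 3 of bap Alk.DN or of bap Dam-PolII (adjusted p = 0.0111 to 0.0331, edgeR), and on library totals the change was -0.13.

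Fas2 (chrX:4132887-4206093, FBgn0000635, 140 sites), which encodes the NCAM-type protein of motor axons, held 1.14 to 1.18 CPM per site in twi Jeb and 1.48 to 1.51 in twi Alk.DN, against 0.928 to 1.08 in twi Dam-PolII. The bap groups held 1.08 to 1.22 in Jeb and 1.48 to 1.78 in Alk.DN, against 0.938 to 1.12 in Dam-PolII. The Alk.DN libraries were above the others in CPM with both drivers, but the change after TMM scaling was -0.02 (adjusted p = 0.874, edgeR) with twi and 0.10 (adjusted p = 0.579, edgeR) with bap. On library totals it was 0.56 and 0.62, both called, which is near the all-gene medians of 0.72 and 0.66. Single sites of Fas2 were called lower at 2 of 50 with twi and higher at 1 of 24 with bap. These are smaller shares than the 11.1% and 20.4% of all tested sites called. The bap call was at an exonic site, with 7.94, 12.2 and 9.75 CPM in bap Alk.DN, against 1.60, 2.05 and 2.27 CPM in bap Dam-PolII (1.92, SE 0.46, adjusted p = 0.00685, edgeR).

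Fas1 (chr3R:16625238-16639771, FBgn0285925, 42 sites) held 1.09, 2.03 and 2.03 CPM per site in twi Jeb and 2.21, 2.27 and 2.41 in twi Alk.DN, against 1.77, 2.05 and 1.89 in twi Dam-PolII. Its values were 0.289, 1.57 and 1.85 in bap Jeb and 1.67, 1.37 and 1.69 in bap Alk.DN, against 1.18, 1.33 and 1.39 in bap Dam-PolII. Replicate 1 of both Jeb groups was the lowest of its driver. The Alk.DN change was -0.31 (adjusted p = 0.0471, edgeR) with twi and -0.24 (adjusted p = 0.316, edgeR) with bap.

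Counted over the 8 genes, 5 were called in Alk.DN against Dam-PolII with twi, where 29.1% of all 14498 tested genes were called, and 5 with bap, where 36.4% of 12598 were. With twi CadN was higher and Fas3, Con, Nrg and Nrt were lower, and with bap CadN was higher and Fas3, Nrg, Nrt and shg were lower. The median log2 fold change of the 8 was -0.35 with twi and -0.42 with bap, against 0.15 and 0.14 for all genes. Nrt lower and CadN higher with both drivers, and Fas3 lower with bap, were the calls that held on library totals as well. Library totals shift fold changes upward, to all-gene medians of 0.72 with twi and 0.66 with bap. They could therefore have undone the Nrt and Fas3 falls, but they were no check on the CadN rise. On library totals 3 members were called with twi, Nrt, CadN and Fas2, and 5 with bap, where Con and Fas2 were higher in place of the Nrg and shg calls, beside 37.5% and 40.7% of all genes. In the fit of all 18 libraries the calls left were Nrt with twi and Fas3 and Nrt with bap, where 4.13% and 13.5% of all genes were called. The VM markers fell with these genes, 5 of 5 being called lower with twi and 3 of 5 with bap, and of 6 markers of the mesoderm at large 6 were lower with twi, and 2 lower and 1 higher with bap. Of 4 endoderm and hemocyte markers, 3 were lower and 1 higher with twi, whereas 2 were higher with bap. Of 2 tracheal markers 1 was called, higher with bap, and the 1 epidermal marker tested was lower with twi. On library totals the VM calls were the same in number, and the endoderm and hemocyte markers gave 2 lower and 1 higher with twi and 4 higher with bap. Other lists turned in part. The markers of the mesoderm at large then gave 5 lower with twi, and 2 higher and 1 lower with bap. The 1 epidermal marker was then higher with twi, and 2 tracheal markers were higher with twi and 1 with bap. The part of these cell types in the members' changes was not tested.

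**Figure D4:**
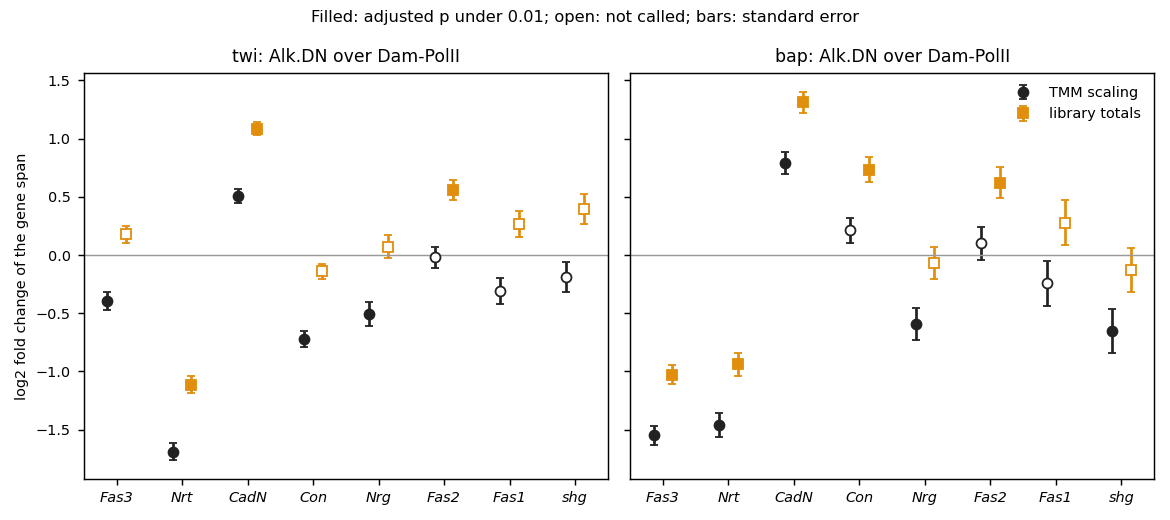
Log2 fold change of each gene span, Alk.DN over Dam-PolII, for twi (left) and bap (right), after TMM scaling (circles) and on library totals (squares), with the standard error as bars and filled symbols for an adjusted p under 0.01. Nrt is below 0 and CadN above 0 in all 4 cases, and Fas3 with twi is at -0.40 and 0.18.

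At promoters, 1 of 6 testable members (Con) was called with twi, where 27% of all promoters were, and 2 of 5 (Fas3 lower, CadN higher) with bap, where 29.7% were. Over gene bodies 6 of 8 were called with twi, where 22.6% of genes were, and 5 of 8 with bap, where 30.2% were. On library totals fewer bodies were called with twi, and the twi body changes of Fas3, Fas1 and Nrg turned sign. In CPM per site the Fas1 body was at 2.21 to 2.41 in twi Alk.DN, against 1.77 to 2.05 in twi Dam-PolII. For Fas1, Fas2, Nrg and CadN the body holds every site of the span, so their body values differ from the span values only through the scaling and adjustment of a separate fit. One such case is Fas1 with twi, which was called in the body fit (-0.45, adjusted p = 0.0087, edgeR) and not in the span fit on the same counts. The promoter to body ratio was called for 1 of 6 members with twi, against 14.9% of 9545 genes, and for 0 of 5 with bap by limma, against 15.6% of 7295, although 4 of these 5 had an unadjusted p under 0.05. No other tool was run on the ratio.

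Of the 945 GATC sites in the 8 spans and their promoter windows, 32 of 408 tested were called with twi (6 higher, 26 lower), where 11.1% of all sites were called, and 46 of 276 with bap (18 higher, 28 lower), where 20.4% were. The members' shares were 7.84% and 16.7%. All called sites of Fas3, Nrt and Nrg were lower with both drivers and all called CadN sites were higher. In Fas1 and shg edgeR called 0 sites; with an unadjusted p under 0.05 were 3 of 20 Fas1 sites and 5 of 21 shg sites with twi, and 1 of 9 and 3 of 16 with bap.

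**Figure D5:**
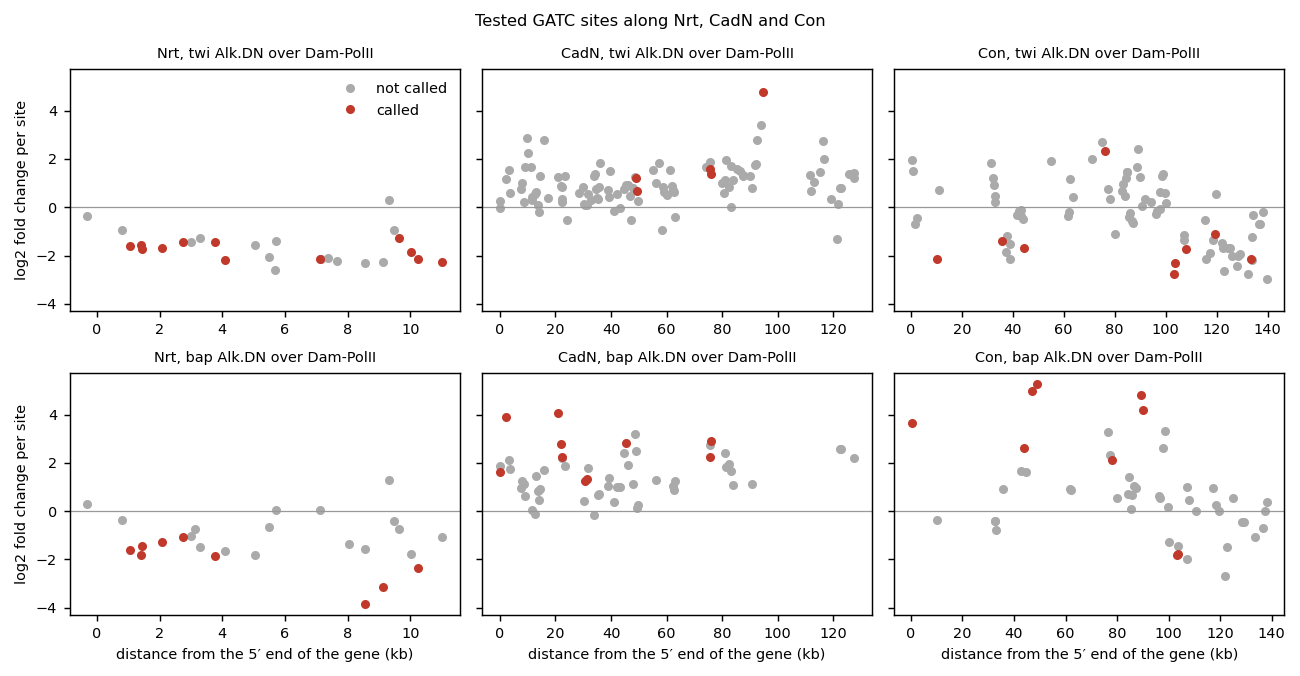
Log2 fold change per tested GATC site, Alk.DN over Dam-PolII, against the distance in kb from the 5' end of Nrt, CadN and Con, with twi above and bap below. Called sites are coloured: 12 and 9 in Nrt, all below 0, 5 and 10 in CadN, all above 0, and 9 with each driver in Con, on both sides of 0.

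Between drivers, 4 of the 8 genes were called in Dam-PolII, where 27.7% of all genes were. Fas3 (-2.45) and Nrt (-0.58) were lower with twi than in the libraries labelled bap, and CadN (0.58) and Con (0.48) were higher. In Alk.DN 3 were called, against 7.37% of all genes, with Fas3 (-1.16) and Nrt (-0.67) lower with twi and CadN (0.44) higher. The interaction was called for 2 of 8, Fas3 and Con, against 9.7% of 14856 genes. All of these calls held on library totals. In the fit of all 18 libraries, whose spread includes the Jeb groups, Fas3 in Dam-PolII was the call that held. The others were lost, with adjusted p = 0.0612 to 0.193 in Dam-PolII, 0.0404 to 0.667 in Alk.DN, and 0.0765 (Fas3) and 0.375 (Con) for the interaction (edgeR), and 7.81%, 0.16% and 0.384% of all genes were then called.

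In Jeb against Dam-PolII edgeR called 0 of the 8 genes with either driver, and 0% of all genes were called (877 genes with twi and 1332 with bap had an unadjusted p under 0.05, and DESeq2 called 23 and 176, or 0.184% and 1.56%). With twi 4 members had an unadjusted p under 0.05 (Fas3, Con, Nrg and Nrt) and with bap 3 (Con, Nrg and Nrt), while the Wald test of DESeq2 called 1 with twi (Fas3) and 1 with bap (Nrg). The values were 1.64 for Fas3 with twi and 0.06 with bap, and 1.38 and 1.93 for Nrg. In Jeb against Alk.DN edgeR also called 0 of 8 with either driver, against 0.222% of all genes with twi and 0% with bap, and 4 members had an unadjusted p under 0.05 with each driver, the 4 named above. DESeq2 called all 4 of these with twi, where it called 17.2% of all genes, and Fas3, Nrg and Nrt with bap, where it called 9.97%. The Jeb over Alk.DN log2 fold changes were 2.11 and 1.61 for Fas3 with twi and bap, 2.86 and 2.37 for Nrt, and 1.95 and 2.58 for Nrg.

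Without replicate 1 of the Jeb group, which lacked the jeb signal, edgeR called Fas3 in twi Jeb over twi Dam-PolII (1.82, adjusted p = 1.73e-05) and Nrg in bap Jeb over bap Dam-PolII (1.56, adjusted p = 0.00619), where 0.768% and 1.73% of all genes were called. Over Alk.DN it then called 5 members with twi, Fas3 (2.31), Nrt (2.48), Con (1.42), Nrg (1.18) and Fas1 (0.63), and 3 with bap, Nrg (2.14), Nrt (2.00) and Fas3 (1.83), all higher in Jeb, beside 26.9% and 12.5% of all genes. The Jeb and Alk.DN comparisons share their libraries, so these values stand side by side and are not independent.

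A list of 53 further adhesion genes, all tested, put the 8 in context. With twi 30 were called in Alk.DN against Dam-PolII (56.6%, 11 higher and 19 lower, median -0.01) and with bap 31 (58.5%, 12 higher and 19 lower, median -0.18), beside the 29.1% and 36.4% of all genes. On library totals, an alternative added for this list after seeing the data, the balance turned, with 28 higher and 9 lower with twi and 21 higher and 6 lower with bap, so the counts by family hold relative to most genes after TMM scaling. Among 14 further cadherins, 6 were higher and 1 lower with twi, and 6 higher and 3 lower with bap. Of 7 catenin and adherens junction genes none was called higher, while 3 were lower with twi and 4 with bap. Of 10 immunoglobulin-domain genes, 2 were higher and 4 lower with twi, and 3 higher and 4 lower with bap. Of 13 septate junction genes, 1 was higher and 6 lower with twi, and 1 higher and 3 lower with bap. Of 6 leucine-rich repeat genes, 4 were lower with each driver and 1 was higher with bap, and of 3 genes for fasciclin domain proteins or ankyrins, 2 were higher and 1 lower with twi and 1 each way with bap. On library totals the 14 cadherins held 11 higher calls with twi and 9 with bap and none lower, and 4 catenin and adherens junction genes were higher with twi and 2 with bap.

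The largest falls with twi were at trn, l(2)gl and 18w. The leucine-rich repeat gene trn held 0.846, 0.813 and 0.589 CPM per site in twi Alk.DN, against 3.43, 3.60 and 4.26 in twi Dam-PolII (-2.91, adjusted p = 9.43e-08, edgeR), and 0.435, 0.641 and 0.515 in bap Alk.DN, against 1.56, 1.70 and 1.56 in bap Dam-PolII (-2.13, adjusted p = 1.10e-05, edgeR). The cell polarity gene l(2)gl held 4.30, 4.43 and 4.52 CPM per site in twi Alk.DN, against 10.1, 10.1 and 11.7 in twi Dam-PolII (-1.84), and 5.63, 6.14 and 7.17 in bap Alk.DN, against 17.9, 17.2 and 15.8 in bap Dam-PolII (-1.94). Both lay apart between Alk.DN and Dam-PolII in all libraries. The Toll-family gene 18w changed by -1.54 with twi, and the claudin gene kune by -2.46 with bap, at 1.32, 1.17 and 1.72 CPM per site in bap Alk.DN, against 3.86, 4.32 and 8.09 in bap Dam-PolII.

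The largest rises with both drivers included fred. The immunoglobulin-domain gene fred held 0.549, 0.694 and 0.560 CPM per site in twi Alk.DN, against 0.182, 0.155 and 0.197 in twi Dam-PolII (1.18, adjusted p = 0.000153, edgeR), and 0.616, 0.430 and 0.807 in bap Alk.DN, against 0.0593, 0.0703 and 0.0535 in bap Dam-PolII (2.82, adjusted p = 9.94e-07, edgeR). With twi the cadherins Cad89D (1.59) and Cad96Ca (1.19) also rose, and with bap the leucine-rich repeat gene chp (2.18) and the ankyrin Ank2 (1.91). Their Dam-PolII means were 0.0915 CPM per site (Cad89D), 0.403 (Cad96Ca), 0.0493 (chp) and 0.0992 (Ank2). Except for Cad96Ca, these means and those of fred lay below the lowest floor of 3 counts at a site, 0.213 CPM. These rises thus start from spans with few counts per site.

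On a common scale of CPM per kb, which allows levels to be set between genes, Nrt was the highest member in all 6 groups, at a mean of 22.5 in twi Alk.DN, against 48.7 in twi Dam-PolII, and 32.1 in bap Alk.DN, against 61.5 in bap Dam-PolII. Fas3 held 5.02 CPM per kb in twi Alk.DN, against 4.43 in twi Dam-PolII, and 10.1 in bap Alk.DN, against 20.5 in bap Dam-PolII. CadN held 8.90 in twi Alk.DN, against 4.20 in twi Dam-PolII, and 5.89 in bap Alk.DN, against 2.37 in bap Dam-PolII. Fas3 came second in bap Alk.DN and in bap Dam-PolII as labelled, but shg did so in twi Alk.DN (11.2) and twi Dam-PolII (8.58). This scale rises with the density of GATC sites, of which shg has 50 in 7544 bp and CadN 230 in 131288 bp. Per site, shg (1.70) was below CadN (5.08) and Fas3 (3.80) in twi Alk.DN, and below Fas3 (1.29 and 3.35) in twi Dam-PolII.

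The genes whose span followed Fas3 most closely over the 18 libraries, by Pearson's r of log2(CPM + 1) among 7665 genes with a mean of 10 CPM or more, were fz2 (0.938), msn (0.927), dally (0.901), CG15771 (0.901) and cic (0.897). They encode a Wnt receptor, a Ste20-type kinase, a glypican, an unnamed product and a transcriptional repressor. Without replicate 1 of both Jeb groups the values were 0.940, 0.925, 0.908, 0.908 and 0.923, but the genes then ranked 5, 13, 24, 26 and 16, so the order rests on those libraries. Among the members Nrt came closest to Fas3 (0.543), followed by Nrg (0.271), and CadN ran opposite (-0.571). The points share libraries, depth and the jeb signal described above, and the values are descriptions over libraries of 6 groups.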

How the data were processed

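Targeted DamID libraries, 18 in 6 groups of 3, were placed by their deposited labels, and replicate 3 of bap Alk.DN by its other label fields because its title names no group. Paired reads were mapped by the authors to the FlyBase release 6 genome (bowtie2), and the deposited table holds unnormalised read counts, with a value for every GATC site in each library (CASAVA 1.4, Bowtie2 and limma are named in the submitters' processing notes). The authors' tables of merged peaks hold their own comparisons (p-values and FDR per peak) and were not used. Positions of all 383661 sites checked matched the RefSeq release 6 plus ISO1 sequence; gene spans and starts came from the Ensembl annotation of BDGP6.54, and their symbols matched all 8 genes.

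Counts were summed over each gene span, over sites within 500 bp of a start (promoter) and over the other sites of the span (body), and tested in R 4.3.3 with edgeR 4.0.16 (filterByExpr with a min.count of 10, TMM, quasi-likelihood F-test, two-sided, Benjamini-Hochberg adjustment over all features tested, threshold 0.01). Only the groups compared entered each fit, and the driver interaction used 4 groups. The promoter to body log2 ratio (pseudocount 1 CPM per site) was tested with limma 3.58.1. The Wald test of DESeq2 1.42.0, library totals, no filter, other promoter windows, a replicate block, all 18 libraries in one fit and leaving out each replicate were alternatives. Python 3.11.15 with numpy 2.4.6 and pandas 2.3.3 prepared the tables, and matplotlib 3.10.9 the plots. The members, lists and tests were chosen with earlier results of these data known.

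Sites were picked as each member's site with the highest mean CPM and, for each Alk.DN comparison, its called site with the smallest adjusted p. Not all of the sites picked are described here, and the strongest sites of Con, Fas2 and Fas1 are among those left out. The Fas3 sites at 13.3 kb and in the promoter window were added after their values were seen. Other adhesion genes named were those with the largest fold changes among the calls of each Alk.DN comparison (3 in each direction), and the 5 genes most like Fas3 had to reach a mean of 10 CPM and not overlap it. Nothing says that replicates share more than a number, and the correlation of deviations of same-numbered libraries was -0.101 to 0.020. The study calls its replicates biological. Amplified fragments are not independent molecules, so depth limits cover counting error only. On simulated counts, the span test called 40.3% of genes given a simulated log2 change of 1 in the twi Alk.DN comparison (14498 genes), 28.4% in the bap one (12598 genes) and 0% in twi Jeb against twi Dam-PolII (12602 genes). The changed genes were drawn from all genes that passed the filter. These shares therefore do not give the power for the members, whose span SEs were 0.061 to 0.19 in the Alk.DN comparisons.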

Additional observations from a re-analysis of the deposited data

Results flagged for a closer look

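For 2 of the 8 genes the Alk.DN change differed between the drivers by a test of the difference itself, the interaction term of edgeR, adjusted over all 14856 genes tested. That term comes from a fit of 4 groups with scaling factors of its own, so it is not exactly the difference of the changes from the separate fits. For Fas3 it was 1.20 on the log2 scale (SE 0.11, adjusted p = 8.19e-08, edgeR), beside separate changes of -0.40 with twi and -1.55 with bap. For Con it was -0.88 (SE 0.13, adjusted p = 2.75e-05, edgeR), beside separate changes of -0.72 with twi and 0.21 with bap. In the fit of all 18 libraries neither was called (Fas3 1.31, adjusted p = 0.0765; Con -0.77, adjusted p = 0.375). With TMM scaling no Alk.DN library of Fas3 overlapped Dam-PolII with either driver. Relative to library totals the twi libraries of Fas3 stood apart the other way, at 3.57 to 3.97 CPM per site in Alk.DN, against 3.21 to 3.48 in Dam-PolII (change 0.18, not called). With TMM scaling those of Con were lower in 3 of 3 libraries with twi. With bap they overlapped, at 1.78 to 2.06 in Alk.DN, against 1.54 to 1.79 in Dam-PolII. The libraries labelled bap Dam-PolII, which hold 374 to 474 CPM at the jeb exons, enter both interaction values, and the part of that signal in them was not tested.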

How the results depend on the processing

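Of the alternatives for single genes, 1428 of 1528 stayed on the same side of the threshold. Another 51 lost a call, 41 gained one and 8 turned sign with a call before or after. The 1428 include uncalled values that changed sign, such as Fas1 over the span with bap (-0.24, and 0.28 on library totals). Of 232 alternative counts of called members or sites, 189 stayed within 1.5 times. All 8 sign changes that involved a call came with library totals in place of TMM. Over the span these were Fas3 0.18, Fas2 0.56 and Nrg 0.072 with twi. Over the body they were Fas2 0.62 with bap, and Fas3 0.20, Fas2 0.56, Fas1 0.27 and Nrg 0.072 with twi. Library totals also gave 3 called members over the span and 3 over the body with twi, and moved the share of higher calls among all genes to 3994 of 5442 with twi and 3743 of 5123 with bap, against 1518 of 4221 and 2103 of 4586 after TMM. With all 18 libraries in one fit, whose spread then includes the Jeb groups, Alk.DN called 1 span with twi and 2 with bap (599 and 1697 of all genes), Jeb against Alk.DN called 4 with each driver, the driver comparison called 0 for Alk.DN, 1 for Dam-PolII, and the interaction 0; promoters gave 0 with twi and 1 with bap, bodies 1 and 2, sites 0 and 6, and the twi ratio 0. DESeq2 called 1 and 1 member in Jeb against Dam-PolII (twi, bap), where 0.184% and 1.56% of all genes were called. In Jeb against Alk.DN it called 4 and 3, where 17.2% and 9.97% of all genes were. It also called 2 promoters and 61 sites with twi. Counts given in this section without a share of all features cannot be read as particular to the members. Without a filter 53 sites were called with twi. With a promoter window of 250 bp, 0 promoters and 0 ratios were called with twi; with 1000 bp, 3 promoters and 2 ratios with twi and 4 promoters and 2 ratios with bap. Leaving out 1 replicate, the Alk.DN counts ranged over 3 to 5 spans with twi and 4 to 5 with bap, 1 to 2 and 2 to 2 promoters, 5 to 6 and 4 to 5 bodies, 1 to 1 and 0 to 0 ratios, and 15 to 48 and 25 to 39 sites. The lowest site counts were 19, 15 and 15 without twi Alk.DN replicates 1, 2 and 3, and 30, 25 and 28 without bap Dam-PolII replicates 1, 2 and 3. The same ranges were 0 to 1 with each driver for Jeb against Dam-PolII, 0 to 5 with twi and 0 to 3 with bap for Jeb against Alk.DN, 4 to 4 and 3 to 3 for the drivers (Dam-PolII, then Alk.DN) and 2 to 2 for the interaction. Replicates share only a number: with the replicate block 5 spans with twi and 4 with bap were called (shg -0.65, adjusted p = 0.0157, edgeR), 5 bodies with twi, 22 sites with twi and 34 with bap, and other counts did not change. The causes of these differences were not tested.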
